A study of Mus musculus with 12 samples.

Results

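The 38 genes described here encode the proteins that take up, activate and oxidise fatty acids and ketone bodies in the mouse heart, together with the transcription factors and coactivators that control them. They were taken as a named list of genes in 10 roles, and all 38 were found among the 53465 genes of the deposited count table. All 38 also passed the filter on low counts that left 16101 genes for testing. The RNA came from the hearts of 12 male mice on a C57BL/6J background, in 4 groups of 3, and the injections began at 8 weeks of age. A17fl/fl mice (labelled ADAM17flox/flox) carry loxP sites around exon 2 of Adam17 and no Cre, and served as littermate controls. A17α-MHCKO mice (labelled ADAM17alpha-MHCKO) carry the same floxed alleles plus a Cre driven by the α-myosin heavy chain promoter, so exon 2 is lost in cardiomyocytes and kept in the other cells of the heart. Mice of each genotype received 4 intraperitoneal injections of doxorubicin (DOX, an anthracycline chemotherapy drug), each of 5 mg/kg, on days 0, 7, 14 and 21 for a total of 20 mg/kg, or the same volume of normal saline (NS). Hearts were taken 4 weeks after the last injection, and the study's text names left ventricular samples where the labels name the heart. Whole tissue was sequenced, so fewer cells of a type and less RNA per cell cannot be told apart.

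The adult heart draws most of its energy from long-chain fatty acids. CD36 and SLC27A1 bring them across the plasma membrane, FABP3 carries them in the cytosol and ACSL1 couples them to coenzyme A. CPT1, the carnitine-acylcarnitine carrier SLC25A20 and CPT2 move the acyl groups into the mitochondrion, where the acyl-CoA dehydrogenases, the trifunctional protein (HADHA and HADHB) and the thiolases shorten them and the electron transfer flavoprotein passes the electrons to the respiratory chain. Ketone bodies enter the same mitochondria through BDH1, OXCT1 and ACAT1. Transcription of these genes is driven by PPARα and PPARδ and by ERRα (Esrra) with the coactivators PGC-1α and PGC-1β (Ppargc1a and Ppargc1b). Pdk4, Angptl4 and Ucp3 are classical PPAR targets that respond quickly to fasting and to fatty acid supply, and PDK4 holds back glucose oxidation by inhibiting pyruvate dehydrogenase.

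Promoters of 7 members are printed because these genes carry the patterns described below. Pdk4 and Ucp3 were among the 3 members with the widest range between hearts, Esrra had the smallest unadjusted p of the members for doxorubicin over both genotypes, Hadha shares its promoter region with Hadhb, Acot2 and Acot1 are neighbouring copies with their highest levels in the same 2 hearts, and Acadm is a known target of PPARα and ERRα. The sequences are from RefSeq on GRCm38.p6, a build older than the GRCm39 used for the counts, and run from 250 bases before to 50 bases after the start of the gene, 5′ to 3′ on the gene's strand. Capitals mark the nuclear receptor half-site AGGTCA, the CCAAT box (CCAAT) and the GC box (GGGCGG), each searched on both strands.
Pdk4 (chr6:5496229-5496528, minus strand): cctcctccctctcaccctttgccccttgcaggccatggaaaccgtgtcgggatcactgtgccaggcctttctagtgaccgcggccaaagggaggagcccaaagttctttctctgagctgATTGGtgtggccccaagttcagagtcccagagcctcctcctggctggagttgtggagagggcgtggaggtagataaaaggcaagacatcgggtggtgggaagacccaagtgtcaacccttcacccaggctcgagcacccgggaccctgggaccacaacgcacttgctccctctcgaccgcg
Ucp3 (chr7:100472741-100473040, plus strand): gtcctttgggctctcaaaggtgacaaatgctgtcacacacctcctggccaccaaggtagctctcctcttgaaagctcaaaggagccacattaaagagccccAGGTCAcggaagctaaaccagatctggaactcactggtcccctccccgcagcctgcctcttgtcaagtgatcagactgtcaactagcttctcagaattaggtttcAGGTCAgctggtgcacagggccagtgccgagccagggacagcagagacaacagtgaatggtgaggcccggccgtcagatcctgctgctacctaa
Acadm (chr3:153944594-153944893, minus strand): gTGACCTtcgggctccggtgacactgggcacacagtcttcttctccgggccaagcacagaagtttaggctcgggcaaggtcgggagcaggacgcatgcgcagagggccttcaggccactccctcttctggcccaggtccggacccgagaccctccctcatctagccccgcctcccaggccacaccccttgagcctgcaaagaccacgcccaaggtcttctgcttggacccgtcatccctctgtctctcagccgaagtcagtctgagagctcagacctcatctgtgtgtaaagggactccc
Esrra (chr19:6921759-6922058, minus strand): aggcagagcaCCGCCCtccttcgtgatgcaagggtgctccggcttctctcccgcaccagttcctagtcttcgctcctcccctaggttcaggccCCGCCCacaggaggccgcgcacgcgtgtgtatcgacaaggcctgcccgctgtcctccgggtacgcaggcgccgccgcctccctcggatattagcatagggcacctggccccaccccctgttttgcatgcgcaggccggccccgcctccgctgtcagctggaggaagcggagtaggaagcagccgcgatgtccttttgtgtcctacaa
Hadha (chr5:30154931-30155230, minus strand): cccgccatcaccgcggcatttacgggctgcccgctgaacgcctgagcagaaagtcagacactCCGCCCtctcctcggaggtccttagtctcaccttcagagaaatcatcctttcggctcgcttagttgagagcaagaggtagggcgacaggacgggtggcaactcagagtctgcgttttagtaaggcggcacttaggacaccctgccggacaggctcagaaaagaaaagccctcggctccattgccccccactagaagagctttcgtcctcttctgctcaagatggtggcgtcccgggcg
Acot2 (chr12:83987611-83987910, plus strand): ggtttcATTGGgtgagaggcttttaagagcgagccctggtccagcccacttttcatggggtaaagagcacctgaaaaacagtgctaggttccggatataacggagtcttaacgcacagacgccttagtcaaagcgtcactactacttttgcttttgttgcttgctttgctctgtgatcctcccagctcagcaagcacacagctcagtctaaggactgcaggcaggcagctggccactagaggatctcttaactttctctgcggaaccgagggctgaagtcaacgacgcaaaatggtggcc
Acot1 (chr12:84009252-84009551, plus strand): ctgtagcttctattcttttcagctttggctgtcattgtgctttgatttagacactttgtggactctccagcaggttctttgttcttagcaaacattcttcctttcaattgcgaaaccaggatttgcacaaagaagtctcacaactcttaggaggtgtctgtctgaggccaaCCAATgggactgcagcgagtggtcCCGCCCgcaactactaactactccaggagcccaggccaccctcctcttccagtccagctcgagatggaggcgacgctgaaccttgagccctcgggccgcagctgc

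RefSeq promoters were found for 32 of the 38 members. The half-site AGGTCA lay in the window of 6 of these 32 genes (Acadm, Acadvl, Cd36, Cpt1a, Echs1 and Ucp3) and in 16.3% of the 32851 promoters of all genes. In Ucp3 it was present at 149 and at 44 bases before the start. Acadm was the 1 member with the longer ERR half-site AAGGTCA, which contains AGGTCA and was found in 4.72% of all promoters. A CCAAT box was present in 15 of the 32 and in 37.4% of all promoters, and a GC box in 22 of the 32 and in 35.7%. The Hadha and Hadhb starts lie 273 bases apart on opposite strands of chromosome 5, so 228 bases of their windows are shared. Acot2 and Acot1 lie on the same strand of chromosome 12, with starts 21629 bases apart in GENCODE M21, and 39% of the bases of the longest Acot1 transcript fall in 31-base words that also occur in Acot2. How the counting divided reads between these copies is not known, so their separate values are uncertain. A letter match is a description of the sequence and not evidence of binding.

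Adam17, the deleted gene, was read first. It stood at 70.9, 48.7 and 43.6 CPM (counts scaled by library size and TMM) in the 3 A17fl/fl + NS hearts and at 48.1, 53.2 and 48.4 in A17fl/fl + DOX. In A17α-MHCKO hearts it was 35.3, 34.9 and 34.2 after NS and 27.9, 36.8 and 32.2 after DOX. The genotypes did not overlap after either treatment, and the log2 difference was -0.64 after NS and -0.63 after DOX, with edgeR adjusted p of 0.313 and 1.0. Reads of the exons that remain are still counted, so the gene's total checks the labels only in part. The libraries held 15950717 to 21725076 counts (median 16413855). Cardiomyocyte markers were abundant in each library, with 19 of 19 detected and a summed level of 35431 to 76653 CPM.

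A control heart stood apart and touches every comparison that uses the A17fl/fl + NS group. The 4 groups share a single estimate of spread per gene, so this heart also enters the SE and p of the other comparisons. For doxorubicin in A17α-MHCKO and genotype after DOX, it was left out only where the 2 groups were compared alone. In A17fl/fl + NS replicate 1 the 12 neutrophil markers summed to 3446 CPM against 17.4 to 91.8 in the other 11 libraries, the 13 macrophage markers to 3407 against 805 to 1195, and the 19 cardiomyocyte markers to 35431 against 55296 to 76653. The 10 fibroblast markers summed to 9742 CPM against 3641 to 5870, and the 7 red blood cell markers to 3623 against 518 to 1935. Interleukin-1β mRNA (Il1b) was at 428 CPM there and at 0.684 to 2.15 elsewhere. The atrial genes Sln and Myl7 were at 0.00 in this library, and at 0.00 and 0.0626 CPM in A17fl/fl + NS replicate 3, while Sln was at 63.8 to 392 and Myl7 at 125 to 1019 in the other 10. The 11 atrial markers summed to 1069 and 415 CPM in those 2 libraries and to 1912 to 8886 in the others. The part of these differences in the results below was not tested. The counts and medians of members in comparisons that rest on A17fl/fl + NS, and many single values, are also given without replicate 1.

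As deposited FPKM, which are per length, Fabp3 was the most abundant member with a mean of 2376 over 12 hearts. The thiolase Acaa2 (490), the long-chain dehydrogenase Acadl (405), the enoyl-CoA isomerase Eci1 (240) and the flavoprotein subunit Etfa (212) came next. At the lower end were Ucp3 (4.23), Ehhadh (3.90), Ppargc1b (3.44) and Angptl4 (3.41). The gene length implied by counts and FPKM ran from 823 bases for Fabp3 to 14154 for Acsl1. It was more than the exons of the GENCODE M21 gene cover for Cd36 (2.32 times), Cpt2 (2.22 times) and other members. These included Etfb (2.15), Slc27a1 (1.99), Ucp3 (1.91) and Acadvl (1.81). FPKM of such genes are lower than a single transcript's length would give. It was less than those exons cover for Eci1 (0.51 times), Cpt1a (0.56), Ppard (0.86) and Esrra (0.93). The order of the members by FPKM depends on those lengths. All values below are CPM and are compared within a gene. In M21, exons of Cpt1b share 2744 bases with the gene model Gm44502 on the same strand and those of Etfb 617 bases with Gm45233, and exons of Acadvl share 1151 bases with Dvl2 on the opposite strand.

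**Figure D1:**
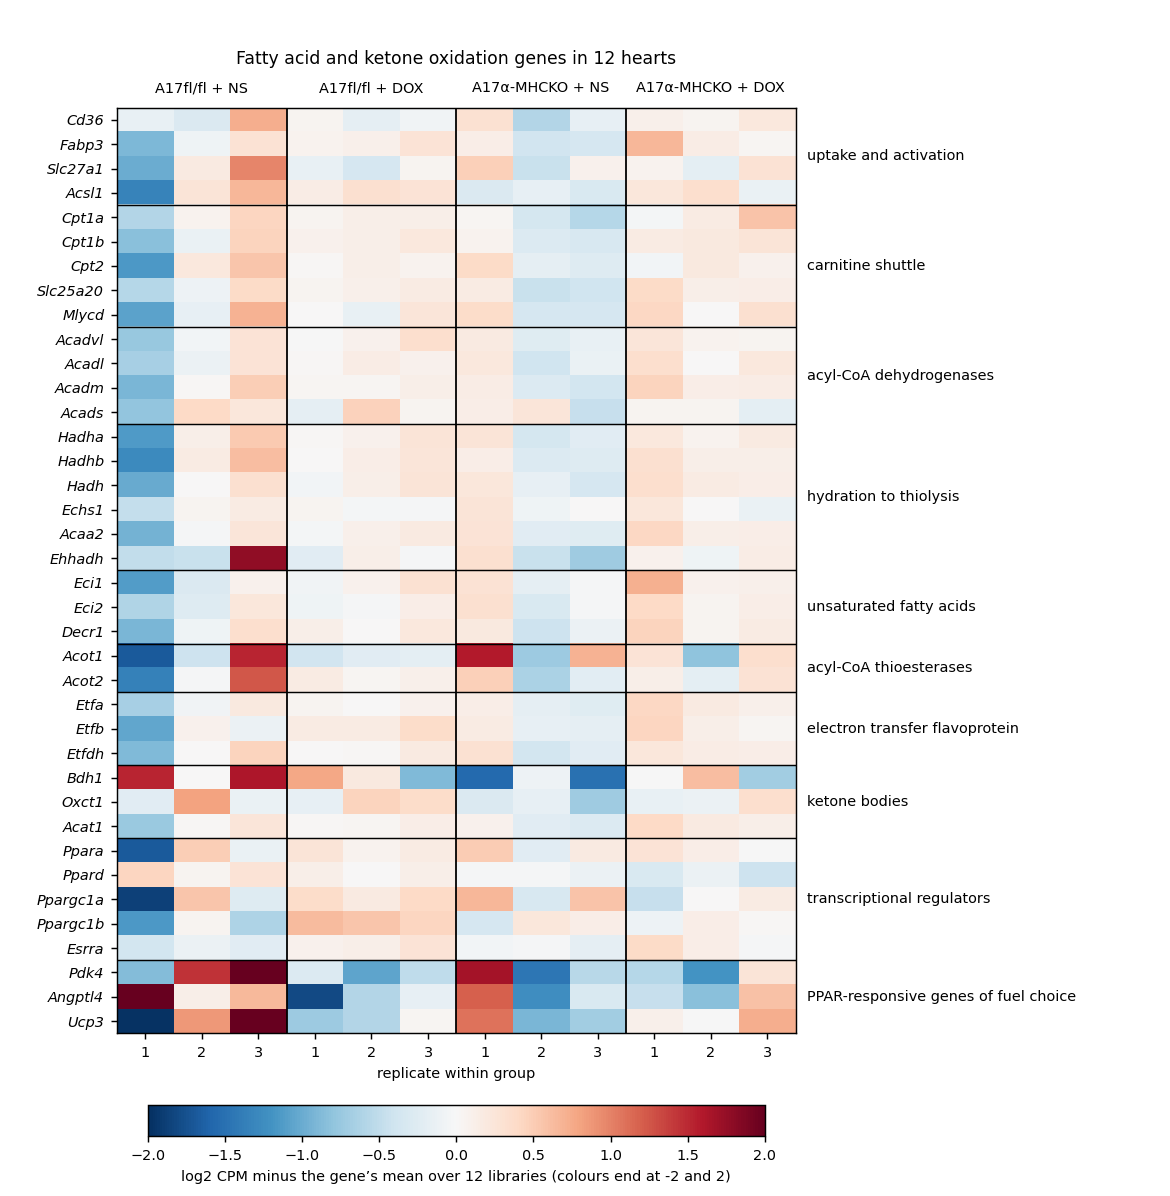
Level of each of the 38 genes in each of the 12 hearts, as log2 CPM minus the mean of that gene over the 12 libraries; rows are genes grouped by role, columns are replicates within the 4 groups. The blue first column is A17fl/fl + NS replicate 1, the lowest library for 31 of the 38 genes, and the last rows hold the PPAR targets with the widest ranges.

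The members spread widely among the saline-treated hearts. A17fl/fl + NS replicate 1 was the lowest of the 12 libraries for 31 of the 38 members, a place it held for 25.5% of all genes tested. A17fl/fl + NS replicate 3 was the highest for 15 members (13.9% of all genes), and A17α-MHCKO + DOX replicate 1 for 12 (15.4%). The median member lay at -0.90 log2 units from its 12-library mean in A17fl/fl + NS replicate 1, at 0.01 in replicate 2 and at 0.36 in replicate 3. The 3 A17fl/fl + DOX hearts were close together at 0.03, 0.09 and 0.15. After NS the A17α-MHCKO hearts were at 0.22, -0.28 and -0.25, and after DOX at 0.22, 0.08 and 0.14. The median within-group SD of log2 CPM over the members was 0.64 in A17fl/fl + NS, 0.31 in A17α-MHCKO + NS, 0.11 in A17fl/fl + DOX and 0.18 in A17α-MHCKO + DOX, against 0.40, 0.20, 0.17 and 0.22 over all genes tested. Averaged over genotypes, the SD was larger after NS than after DOX for 37 of the 38 members (97.4%) and for 74.5% of all genes. The exception was Esrra. With A17fl/fl + NS replicate 1 left out, the median SD of that group was 0.31 over the members and 0.22 over all genes, and the SD was larger after NS for 36 of the 38 members (94.7%) and for 57.1% of all genes. These are descriptions of 12 libraries, and with 3 hearts in a group the spread itself is poorly known.

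**Figure D2:**
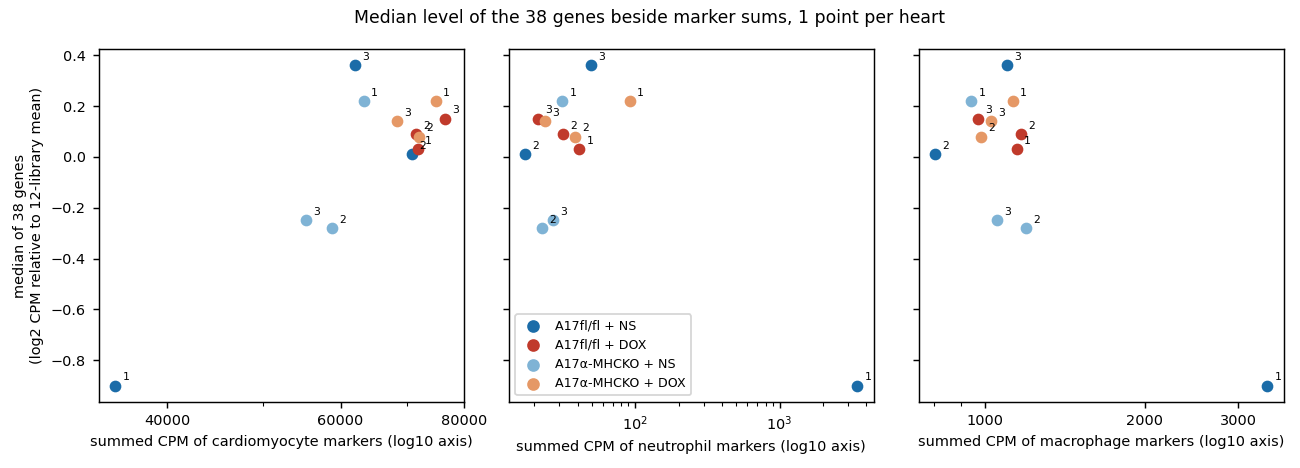
Median of the 38 genes in each heart (log2 CPM relative to the 12-library mean, vertical axis) against the summed CPM of cardiomyocyte, neutrophil and macrophage markers (log10 horizontal axes); each point is 1 heart, coloured by group and numbered by replicate. A17fl/fl + NS replicate 1, at -0.90, has the lowest cardiomyocyte sum and the highest neutrophil and macrophage sums.

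No member passed the test across all genes. Under edgeR's quasi-likelihood test with Benjamini-Hochberg adjustment over 16101 genes, 0 of 38 members had an adjusted p under 0.05 in any of the 7 contrasts, where 0.00% of all genes did so for doxorubicin in A17fl/fl, in A17α-MHCKO and over both genotypes and for the interaction, 0.0186% for genotype after NS, 0.00621% for genotype after DOX and 0.0248% for genotype over both treatments. The smallest adjusted p of a member was 0.334 for doxorubicin in A17fl/fl, 0.793 in A17α-MHCKO, 0.313 for genotype after NS and 1.0 after DOX. DESeq2 called 1 member for doxorubicin in A17fl/fl (Ppargc1b, log2 fold change 1.02, adjusted p 0.0423; 0.985% of genes called) and 1 for genotype after NS (Bdh1, -2.09, adjusted p 0.0135; 0.998%). Without A17fl/fl + NS replicate 2, edgeR called Ppargc1b for doxorubicin in A17fl/fl (1.41, adjusted p 0.0158; 2.38% of genes) and Bdh1 and Ppargc1b for genotype after NS (-2.45 and 0.90, adjusted p 0.0345 and 0.0468; 4.09%). The further counts use the unadjusted p under 0.05 and are read against the share of all genes that reach it.

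After doxorubicin in A17fl/fl mice, 2 members had a higher level at an unadjusted p under 0.05 (Ppargc1b and Esrra) and 2 a lower level (Angptl4 and Pdk4), against 4.11% and 6.58% of all genes. The group ranges did not overlap for 4 members, namely Etfb, Ppargc1b, Esrra and Angptl4, against 13.3% of all genes. The study's own limits (a change of more than 1 log2 unit, p below 0.05 before adjustment, and FPKM averaging above 1 in a group) were met by 3 members, Ppargc1b, Pdk4 and Angptl4, and by 2.82% of all genes. The median log2 fold change of the 38 was 0.13, with 28 above 0, beside -0.04 over all genes, of which 44.5% were above 0. Of the 19 cardiomyocyte markers, 17 were above 0 (median 0.30), and their part in the members' values was not tested. Without A17fl/fl + NS replicate 1 the median of the 38 was -0.14 with 8 above 0 (48.8% of all genes). Without replicate 3 it was 0.44 with 32 above 0, so the sign of the median turned on 1 control heart. Of the cardiomyocyte markers, 14 of 19 were still above 0 without replicate 1. In the fit without replicate 1, 2 members were higher (Ppargc1b and Esrra; 4.63% of all genes) and 4 lower (Slc27a1, Ehhadh, Pdk4 and Ucp3; 5.60%) at an unadjusted p under 0.05, and Ehhadh, Pdk4 and Ucp3 met the study's limits (1.24% of all genes).

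In A17α-MHCKO mice, 0 members had an unadjusted p under 0.05 for doxorubicin in either direction, against 3.97% of all genes higher and 2.44% lower. The median log2 fold change was 0.26, with 28 of 38 above 0, beside 0.00 over all genes, of which 50.5% were above 0. It was 0.46 without A17α-MHCKO + NS replicate 1 and 0.14 without replicate 2. The ranges did not overlap for 5 members, with Acsl1, Cpt1b, Oxct1, Acat1 and Esrra higher in all 3 DOX hearts than in all 3 NS hearts, against 16.9% of all genes. The count at an unadjusted p under 0.05 depended on the fit. With these 2 groups alone it was 4 higher and 0 lower (5.47% and 5.34% of all genes), and with voom and library weights, added after the data were seen, 9 higher and 0 lower (7.19% and 5.93%). Cpt1a had the smallest p of the members (log2 fold change 0.53 ± 0.25 SE, adjusted p 0.793 by edgeR). The cardiomyocyte markers moved the same way, with sums of 63372, 58787 and 55296 CPM after NS and 74978, 72133 and 68437 after DOX. Of the 19, 15 had a log2 fold change above 0 (median 0.37), 7 of them at an unadjusted p under 0.05. The 11 atrial markers were all below 0 (median -1.62), as were the 10 mesothelial (-2.33) and the 10 fibroblast markers (-0.40), while the 10 neutrophil markers tested were all above 0 (0.80). The part of these markers in the members' values was not tested.

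**Figure D3:**
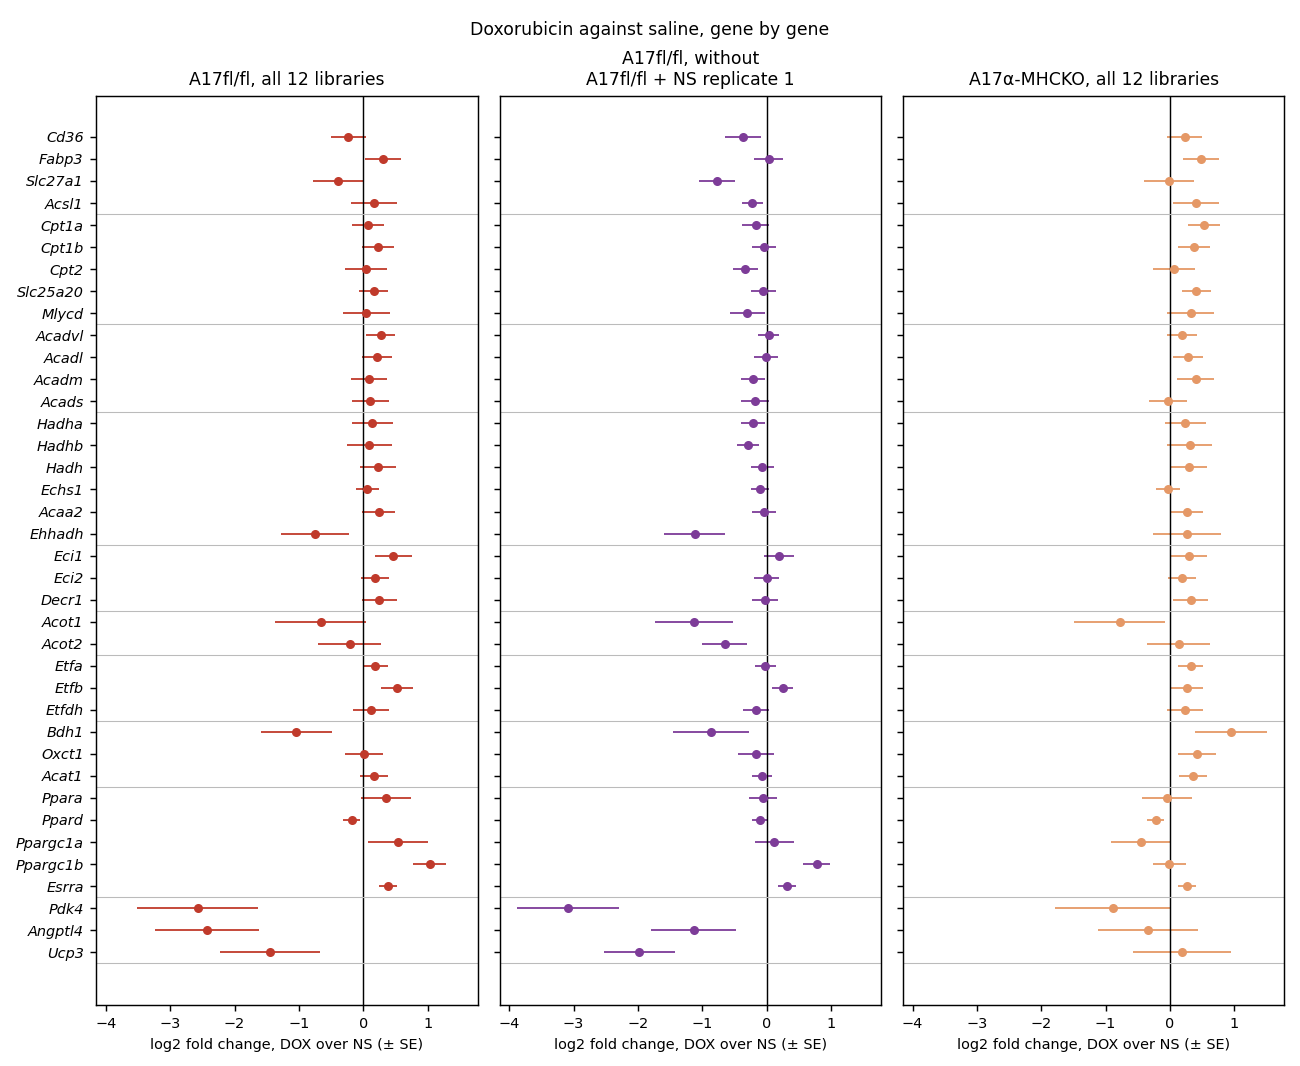
Log2 fold change of each member after doxorubicin (horizontal axis, points with SE bars) in A17fl/fl with all libraries, in A17fl/fl without A17fl/fl + NS replicate 1, and in A17α-MHCKO; genes are in the order of their roles. Most points of the first panel sit just above 0 (28 of 38) and most of the second just below (8 of 38 above), while Pdk4, Angptl4 and Ucp3 stay on the left in both.

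Between genotypes after NS, 0 members were higher and 2 were lower in A17α-MHCKO at an unadjusted p under 0.05 (Bdh1 and Ppard), against 3.61% and 6.53% of all genes. The same 2 genes were the ones whose ranges did not overlap, against 10.9% of all genes, and Bdh1 alone met the study's limits, against 2.99%. The median log2 difference was -0.03 (15 of 38 above 0; all genes -0.03). Without A17fl/fl + NS replicate 1 it was -0.30 with 5 above 0, and 11 members were lower at an unadjusted p under 0.05 (5.65% of all genes) with 0 higher (4.58%). Those 11 were Acsl1, Cpt1a, Acadm, Hadha, Hadhb, Ehhadh, Acot2, Bdh1, Oxct1, Pdk4 and Ucp3, with adjusted p from 0.165 upward, and 4 of them (Ehhadh, Bdh1, Pdk4 and Ucp3) met the study's limits against 1.55% of all genes. The median was 0.27 with 32 above 0 without replicate 3. In the fit without replicate 1, 5 of the 19 cardiomyocyte markers and 10 of the 10 fibroblast markers were above 0 (49.2% of all genes). At an unadjusted p under 0.05, 2 cardiomyocyte markers were lower and 1 fibroblast marker was higher. The part of these markers in the members' values was not tested. After DOX, 0 members were higher and 1 was lower (Ppard), against 1.52% and 1.19% of all genes, and the median was 0.10 (27 above 0). Ranges did not overlap for 6 members after DOX, with Cd36, Acadm and Etfa higher and Ppard, Ppargc1a and Ppargc1b lower in A17α-MHCKO, against 14.1% of all genes.

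**Figure D4:**
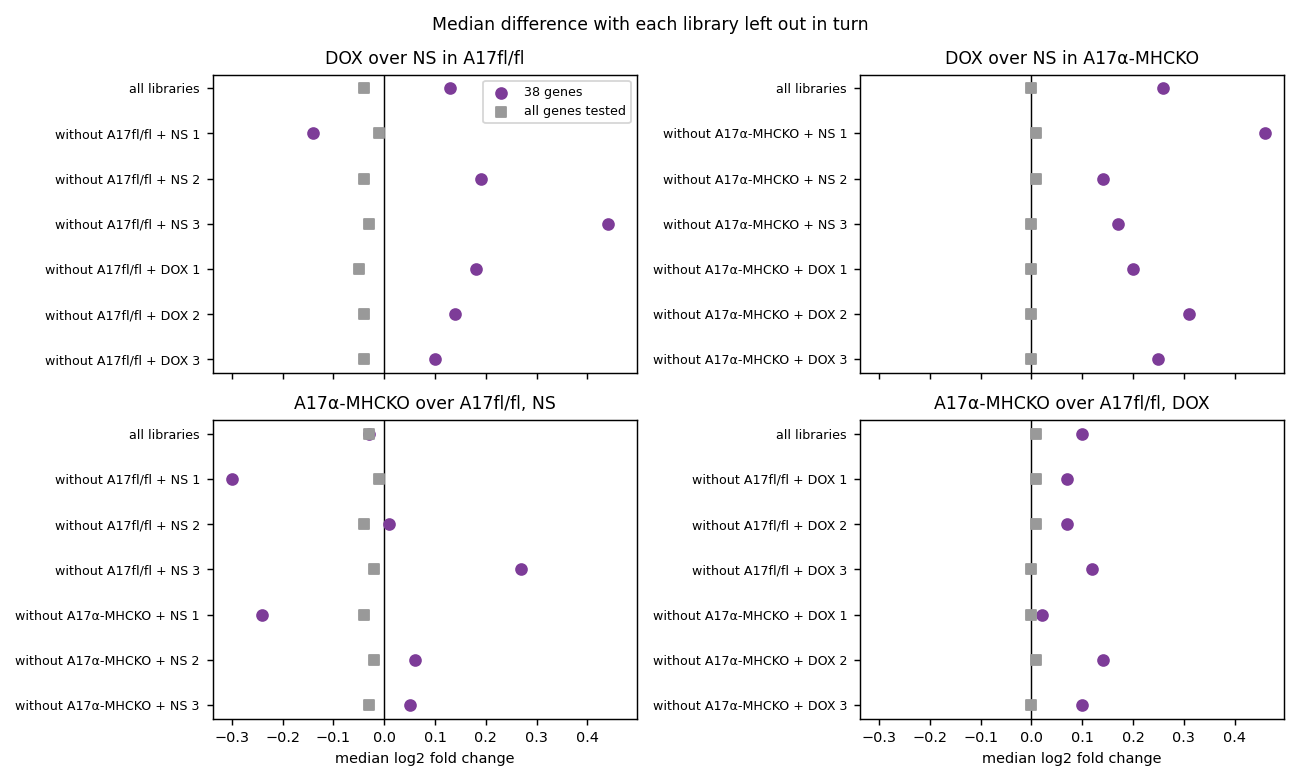
Median log2 fold change of the 38 genes (circles) and of all genes tested (squares) in the fit of all libraries and in the fits that each omit 1 library, for doxorubicin in each genotype (top) and for genotype after each treatment (bottom). The circles move between -0.14 and 0.44 for doxorubicin in A17fl/fl and between -0.30 and 0.27 for genotype after NS, while the squares stay near 0.

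Over both genotypes, doxorubicin gave 3 members higher (Esrra, Ppargc1b and Etfb) and 3 lower (Pdk4, Angptl4 and Ppard) at an unadjusted p under 0.05, against 5.47% and 5.20% of all genes, and the median was 0.20. Without A17fl/fl + NS replicate 3 the count was 16 higher (6.43% of all genes) and 1 lower (Angptl4; 7.74%). The 16 then included Fabp3, Cpt1a, Cpt1b, Slc25a20, Mlycd, Acadvl, Acadl, Acadm, Eci1, Eci2, Decr1, Etfa and Acat1, with adjusted p from 0.225 upward. Leaving out replicate 1 of that group gave 3 higher (Etfb, Ppargc1b and Esrra; 7.57%), 3 lower (Acot1, Pdk4 and Ucp3; 7.45%) and a median of 0.07. Over both treatments, a contrast added after results had been seen, 0 members were higher and 2 lower in A17α-MHCKO (Ppard and Bdh1; 2.76% and 3.89% of all genes), and Ppard was the 1 member whose 6 A17α-MHCKO hearts all lay below the 6 A17fl/fl hearts, which 0.335% of all genes did in one direction or the other. Leaving out A17fl/fl + NS replicate 1 gave 0 higher (5.36%) and 4 lower (Acsl1, Oxct1, Bdh1 and Ppard; 4.96%), with a median of -0.11. The interaction, which asks whether doxorubicin acted differently in the 2 genotypes, gave 1 member higher (Bdh1) and 1 lower (Ppargc1b) against 3.50% and 2.49% of all genes. Without A17fl/fl + NS replicate 1 it gave 6 higher (Acsl1, Cpt1a, Acadm, Hadhb, Bdh1 and Ucp3; 3.82%) and 1 lower (Ppargc1b; 3.30%).

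Among the regulators, Ppargc1b, the coactivator PGC-1β, was at 6.35, 14.9 and 9.33 CPM in A17fl/fl + NS and at 22.1, 20.9 and 19.3 in A17fl/fl + DOX. In A17α-MHCKO it was at 11.4, 16.7 and 15.7 after NS and at 13.3, 15.7 and 14.6 after DOX. All 3 A17fl/fl + DOX hearts were above the other 9, a pattern that was not counted over all genes. Its log2 fold change with doxorubicin was 1.03 ± 0.26 (SE, adjusted p = 0.334 by edgeR) in A17fl/fl, which is 2.04-fold, and 0.78 ± 0.21 without A17fl/fl + NS replicate 1. The A17α-MHCKO hearts gave -0.01 ± 0.26, and the test of the difference between genotypes gave -1.04 ± 0.37 (adjusted p = 0.828 by edgeR), and -0.79 ± 0.28 without that control heart. Esrra was at 114, 136 and 126 CPM in A17fl/fl + NS and at 154, 159 and 177 after DOX. The A17α-MHCKO values were 141, 143 and 129 after NS and 190, 160 and 144 after DOX. Each DOX heart exceeded each NS heart of its genotype, by 0.38 ± 0.14 log2 units in A17fl/fl and 0.26 ± 0.14 in A17α-MHCKO. Over both genotypes the value was 0.32 ± 0.10, or 1.25-fold (adjusted p = 0.321 by edgeR), and it lay between 0.26 and 0.37 when any 1 library was left out.

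Ppard, which encodes PPARδ, was lower in the A17α-MHCKO hearts after both treatments. A17fl/fl hearts had 44.6, 34.3 and 40.2 CPM after NS and 35.9, 33.3 and 35.7 after DOX, and A17α-MHCKO hearts had 32.4, 32.6 and 30.5 after NS and 26.7, 30.5 and 25.0 after DOX. The log2 difference was -0.32 ± 0.13 after NS, -0.35 ± 0.13 after DOX and -0.33 ± 0.09 over both (adjusted p = 0.736 by edgeR), between -0.38 and -0.29 with any 1 library left out. The last value is a 0.793-fold difference. After NS alone it was -0.23 without A17fl/fl + NS replicate 1, at an unadjusted p of 0.0895, and 8 of the 12 alternatives put it above 0.05. Ppargc1a, the coactivator PGC-1α, was at 20.7, 110 and 62.9 CPM in A17fl/fl + NS and at 97.1, 85.4 and 99.1 after DOX. In the A17α-MHCKO groups it was at 120, 60.3 and 112 after NS and at 54.6, 75.3 and 84.4 after DOX. The A17fl/fl + NS hearts lay on both sides of the A17fl/fl + DOX hearts, and in A17α-MHCKO the ranges overlapped. The log2 fold change was 0.54 ± 0.46 in A17fl/fl (0.12 ± 0.30 without A17fl/fl + NS replicate 1) and -0.45 ± 0.46 in A17α-MHCKO. Ppara, the main PPAR of the heart, ran from 21.9 to 36.0 CPM in 11 hearts and was at 7.85 in A17fl/fl + NS replicate 1.

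The PPAR-responsive genes had the widest ranges of the list. Pdk4 was at 144, 712 and 2264 CPM in A17fl/fl + NS and at 215, 126 and 184 in A17fl/fl + DOX. In A17α-MHCKO it was at 834, 95.9 and 177 after NS and at 176, 114 and 313 after DOX. The highest and lowest heart differed 23.6-fold, and both were saline-treated. Its log2 fold change with doxorubicin in A17fl/fl was -2.57 ± 0.94 (adjusted p = 0.414 by edgeR), -3.09 ± 0.79 without A17fl/fl + NS replicate 1 and -1.29 without replicate 3. The A17α-MHCKO hearts gave -0.88 ± 0.90. The groups overlapped in both genotypes. In A17fl/fl the overlap came from NS replicate 1, which lay within the DOX range.

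Ucp3, a mitochondrial carrier induced by fatty acids, followed the order of Pdk4 within each saline group, at 5.02, 36.5 and 84.6 CPM in A17fl/fl + NS and 42.7, 10.5 and 12.4 in A17α-MHCKO + NS. After DOX it was at 12.1, 13.4 and 20.6 in A17fl/fl and at 21.5, 19.9 and 33.2 in A17α-MHCKO. Its log2 fold change was -1.45 ± 0.78 in A17fl/fl (-1.98 ± 0.55 without A17fl/fl + NS replicate 1) and 0.19 ± 0.76 in A17α-MHCKO. Angptl4, a secreted inhibitor of lipoprotein lipase, was at 83.9, 12.7 and 18.5 CPM in A17fl/fl + NS and at 3.27, 7.76 and 10.4 after DOX. It was at 27.1, 4.88 and 9.47 in A17α-MHCKO + NS and at 8.50, 6.50 and 17.7 after DOX. Its highest value was in the heart with the high neutrophil and macrophage marker sums, and the log2 fold change in A17fl/fl was -2.43 ± 0.81 with that heart and -1.13 without it (unadjusted p of 0.0120 and 0.111). A17fl/fl + NS replicate 3 and A17α-MHCKO + NS replicate 1 were the 2 highest hearts for Pdk4 and Ucp3, and also for Acot1, the cytosolic acyl-CoA thioesterase, at 62.5 and 65.6 CPM against 6.70 to 35.3 in the other 10. The mitochondrial copy Acot2 was at 180 and 105 CPM in those 2 hearts and at 29.6 to 92.5 in the other 10. Ehhadh, the bifunctional enzyme of peroxisomes, was at 37.0 CPM in A17fl/fl + NS replicate 3 and at 13.4 in A17α-MHCKO + NS replicate 1, against 6.51 to 11.8 elsewhere.

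**Figure D5:**
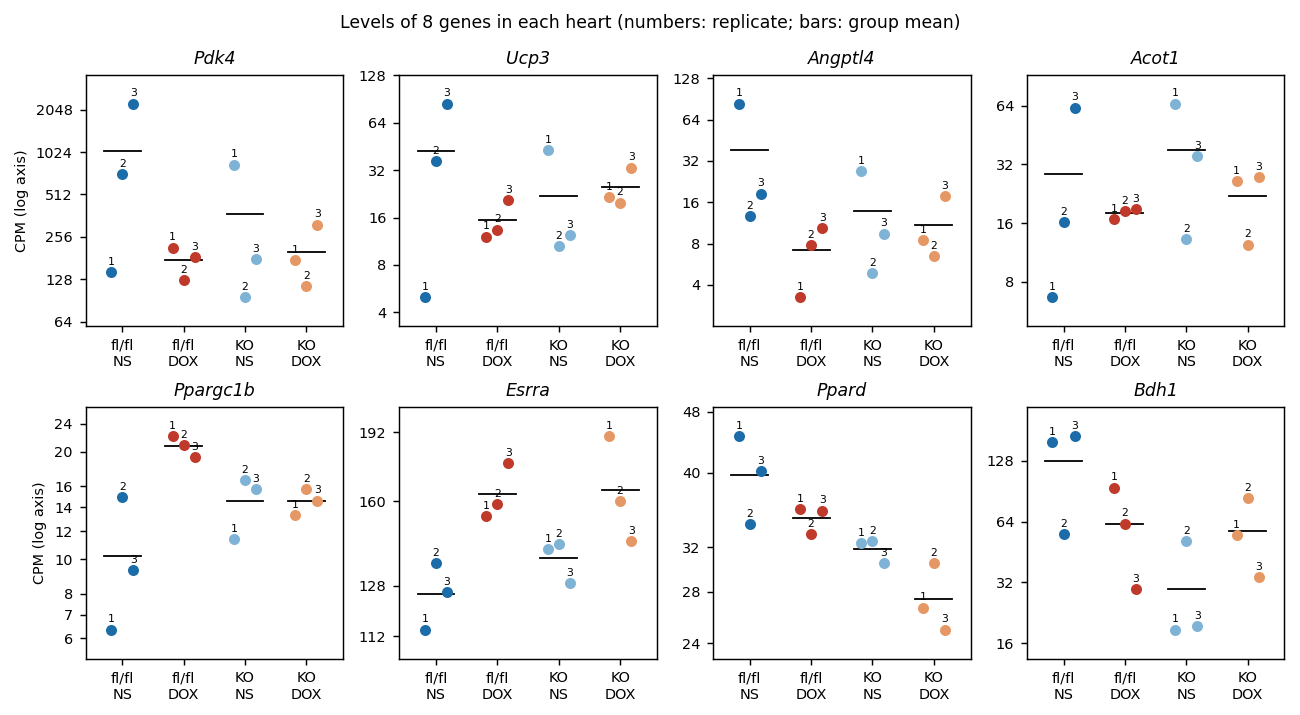
CPM (log axis) of 8 members in each heart, by group; points are hearts numbered by replicate and bars are group means. Pdk4, Ucp3, Angptl4 and Acot1 scatter widely in the 2 saline groups, the 3 A17fl/fl + DOX points of Ppargc1b lie above all others, and Ppard is lower in the A17α-MHCKO groups.

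Of the ketone body genes, Bdh1, the hydroxybutyrate dehydrogenase that takes the first step of ketone oxidation, differed most between genotypes after NS. It was at 158, 55.5 and 169 CPM in A17fl/fl + NS and at 18.7, 51.2 and 19.5 in A17α-MHCKO + NS, so the groups did not overlap although the closest values were 55.5 and 51.2. The log2 difference was -2.09 ± 0.57 (adjusted p = 0.313 by edgeR) and -1.91 ± 0.60 without A17fl/fl + NS replicate 1. After DOX the genotypes overlapped at 94.3, 62.6 and 29.6 CPM in A17fl/fl and 54.8, 84.0 and 34.1 in A17α-MHCKO, with a difference of -0.11 ± 0.55. The doxorubicin effect was -1.04 ± 0.55 in A17fl/fl and 0.95 ± 0.56 in A17α-MHCKO, and the interaction was 1.98 ± 0.79 (adjusted p = 0.828 by edgeR). Leaving out A17fl/fl + NS replicate 1 gave -0.86 ± 0.59 for doxorubicin in A17fl/fl, and the interaction, which lay between 1.61 and 2.60 with any 1 library left out, then had an adjusted p of 0.697 by edgeR. In M21 an antisense gene, Gm15743, shares 533 exon bases with Bdh1, and the strand setting of the counting is not given in the sources used here. Oxct1, which activates acetoacetate, was at 476, 972 and 512 CPM in A17fl/fl + NS and at 457, 496 and 342 in A17α-MHCKO + NS, and at 499, 763 and 718 and at 503, 517 and 709 after DOX. The genotype difference after NS was -0.60 ± 0.29, -0.78 ± 0.28 without A17fl/fl + NS replicate 1 and -0.19 without replicate 2. Acat1, the thiolase that ends the ketone pathway, was at 273 to 603 CPM, lowest in A17fl/fl + NS replicate 1.

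For doxorubicin in A17fl/fl the log2 fold changes of the 5 carnitine shuttle genes ran from 0.04 (Cpt2) to 0.23 (Cpt1b) and those of the 4 acyl-CoA dehydrogenases from 0.09 (Acadm) to 0.27 (Acadvl), each with an SE of 0.23 to 0.36. Of these, 0 of the 5 and 1 of the 4 were above 0 without A17fl/fl + NS replicate 1. The muscle isoform Cpt1b, whose product is the entry gate for long-chain fatty acids, was at 258, 420 and 621 CPM in A17fl/fl + NS and at 489, 500 and 532 after DOX. In the A17α-MHCKO groups it was at 483, 378 and 367 after NS and 518, 529 and 546 after DOX. The saline control hearts spread on both sides of the tight DOX group.

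Acadm, the medium-chain dehydrogenase, was at 407, 780 and 1081 CPM in A17fl/fl + NS, 793, 792 and 834 in A17fl/fl + DOX, 854, 637 and 600 in A17α-MHCKO + NS and 1051, 847 and 859 in A17α-MHCKO + DOX. After DOX its genotypes did not overlap, and the log2 difference was 0.19 ± 0.29. This SE rests on the spread in all 4 groups. The SD of log2 CPM of Acadm was 0.04 in A17fl/fl + DOX and 0.17 in A17α-MHCKO + DOX. In the NS groups it was 0.72 and 0.27, respectively. The trifunctional protein subunits Hadha and Hadhb had the same order within the control group, at 443, 1051 and 1382 and at 63.9, 175 and 238 CPM. Their log2 fold changes with doxorubicin in A17fl/fl were 0.14 ± 0.32 and 0.09 ± 0.35, and -0.21 ± 0.19 and -0.29 ± 0.17 with A17fl/fl + NS replicate 1 left out. Hadha shares 75 exon bases with Garem2 on the opposite strand in M21. Cpt1a, the liver-type isoform, was at 41.2, 65.2 and 83.8 CPM in A17fl/fl + NS, 64.5, 67.6 and 67.3 in A17fl/fl + DOX, 63.9, 48.8 and 41.9 in A17α-MHCKO + NS and 60.6, 69.4 and 92.4 in A17α-MHCKO + DOX. Slc25a20 was at 107, 147 and 206 CPM and at 165, 170 and 178 in the A17fl/fl groups, and at 178, 117 and 120 and at 207, 171 and 175 in the A17α-MHCKO groups after NS and DOX, respectively.

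Of the uptake and activation genes, Fabp3 was at 1020, 1797 and 2328 CPM in A17fl/fl + NS and at 2000, 2044 and 2304 after DOX, and Acsl1 at 227, 684 and 908 and at 638, 715 and 698. Slc27a1, the fatty acid transporter FATP1, was at 60.5, 136 and 236 CPM in A17fl/fl + NS and at 109, 95.4 and 125 after DOX. Its log2 fold change was -0.39 ± 0.39, and -0.77 ± 0.28 without A17fl/fl + NS replicate 1 (adjusted p = 0.385 by edgeR). Cd36 ranged from 807 to 2009 CPM and was not at its lowest in A17fl/fl + NS replicate 1. Of the electron transfer genes, Etfb was at 186, 404 and 351 CPM in A17fl/fl + NS and at 428, 427 and 492 after DOX, a log2 fold change of 0.52 ± 0.25 (adjusted p = 0.480 by edgeR) and 0.39 ± 0.17 over both genotypes. In the fit that omitted the first A17fl/fl + NS heart they were 0.25 ± 0.16 and 0.25 ± 0.11. Etfa was at 289, 438 and 527 and at 477, 466 and 489 in the A17fl/fl groups and at 508, 408 and 388 and at 616, 521 and 495 in the A17α-MHCKO groups. Among the enzymes for unsaturated fatty acids, Eci1 was at 117, 207 and 269 CPM in A17fl/fl + NS, 241, 268 and 312 in A17fl/fl + DOX, 311, 223 and 250 in A17α-MHCKO + NS and 416, 271 and 272 in A17α-MHCKO + DOX. Eci2 was at 75.4, 95.6 and 134, at 108, 112 and 126, at 143, 92.6 and 113 and at 151, 119 and 126 CPM in the same order of groups. Neither differed between groups at an unadjusted p under 0.05 with all libraries.

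Genes of neighbouring pathways that are not among the 38 were read as lists, with 0 passing the adjusted test in the 4 comparisons between 2 groups. Their counts stand beside 44.5% of all genes above 0, 4.11% higher and 6.58% lower at an unadjusted p under 0.05 for doxorubicin in A17fl/fl, and 50.5%, 3.97% and 2.44% in A17α-MHCKO. Of 37 other enzymes of fatty acid oxidation tested, 22 had a log2 fold change above 0 after doxorubicin in A17fl/fl and 31 in A17α-MHCKO, with 1 and 4 higher at an unadjusted p under 0.05 and 0 lower. In A17fl/fl without NS replicate 1, 14 of the 37 were above 0, beside 48.8% of all genes. Of 18 citric acid cycle genes, 16 and 17 were above 0, with 2 higher in each genotype. In A17fl/fl these 2 were Mdh2 (0.41 ± 0.15) and Cs, citrate synthase (0.46 ± 0.21). Leaving out A17fl/fl + NS replicate 1 gave 12 of the 18 above 0, Mdh2 at 0.30 ± 0.14 and Cs at 0.22 ± 0.13, both with an unadjusted p above 0.05. Of 33 genes of fatty acid supply and triglyceride storage, 12 were above 0 in A17fl/fl and 15 in A17α-MHCKO, with 3 and 0 lower at an unadjusted p under 0.05. Without A17fl/fl + NS replicate 1, 1 of the 33 was higher and 8 were lower in A17fl/fl (4.63% and 5.60% of all genes). The lipid droplet protein gene Plin2 (-0.95 ± 0.28) was at 102, 38.4 and 97.0 CPM in A17fl/fl + NS and at 39.7 to 50.3 in the other 9 hearts, and it was at -0.73 ± 0.28 without A17fl/fl + NS replicate 1. Hilpda, an inhibitor of lipid droplet breakdown, was at 46.3 CPM in A17fl/fl + NS replicate 1 and at 3.35 to 9.32 in the other 11 (-2.22 ± 0.83, and 0.17 ± 0.27 without that heart).

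Among 10 genes of ketone synthesis and transport, 2 were above 0 after doxorubicin in A17fl/fl, with 1 higher and 1 lower at an unadjusted p under 0.05. The higher one was Slc16a1, which encodes the monocarboxylate transporter MCT1 that carries lactate and ketone bodies. It was at 188, 227 and 198 CPM in A17fl/fl + NS and at 294, 248 and 276 after DOX (0.42 ± 0.12, adjusted p = 0.358 by edgeR, and 0.36 ± 0.12 without A17fl/fl + NS replicate 1). In A17α-MHCKO it was at 175, 187 and 180 after NS and at 260, 267 and 264 after DOX. Each DOX heart thus exceeded each NS heart of either genotype, a pattern that was not counted over all genes. The lower one, Slc16a3 (MCT4), was at 227 CPM in A17fl/fl + NS replicate 1 and at 3.57 to 7.43 in the other 11, and its fold change was 0.29 ± 0.31 without that heart. Of 38 genes of glucose use, 23 were above 0 in A17fl/fl and 32 in A17α-MHCKO, and the 2 lower ones with the smallest p in A17fl/fl, Slc2a1 (-2.08 ± 0.67) and Pfkfb3 (-1.04 ± 0.33), had their highest level in A17fl/fl + NS replicate 1 and stood at -0.32 ± 0.18 and -0.75 ± 0.32 without it. For genotype after DOX, the mitochondrial pyruvate carrier Mpc1 was at 37.3, 41.8 and 27.0 CPM in A17fl/fl and at 109, 130 and 37.8 in A17α-MHCKO (1.38 ± 0.40, adjusted p = 1.0 by edgeR). Of 20 genes of fatty acid synthesis, 11 were above 0 after doxorubicin in A17fl/fl and 4 in A17α-MHCKO. At an unadjusted p under 0.05, 0 were higher and 2 lower in A17fl/fl, and 1 higher and 4 lower in A17α-MHCKO. Of 25 other regulators of oxidative metabolism, 10 and 9 were above 0, with 3 higher and 3 lower in A17fl/fl and 2 and 0 in A17α-MHCKO. The glucose genes had 3 higher and 3 lower in A17fl/fl and 4 and 0 in A17α-MHCKO. In A17α-MHCKO 4 of the 10 ketone genes were above 0, with 2 higher and 1 lower. In A17fl/fl without NS replicate 1, 9 of 33 supply and storage genes, 6 of 10 ketone genes, 25 of 38 glucose genes, 10 of 20 synthesis genes and 8 of 25 regulators were above 0.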

How the data were processed

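RNA from 12 mouse hearts was sequenced as paired-end, stranded mRNA libraries. The authors aligned the reads to GRCm39 and counted fragments per gene with StringTie, and the submitters' processing notes name CASAVA 1.8, HISAT2, SAMtools 1.3.1 and edgeR. The deposited table holds raw fragment counts and FPKM for 53465 genes in each library; the annotation release and strand setting are not given in the sources used here. The deposited FPKM were used for levels between genes and for the study's limit, and the deposited counts for all tests.

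Genes were filtered with filterByExpr, scaled by TMM and fitted in edgeR 4.0.16 (R 4.3.3) as 4 group means over 12 libraries, with the quasi-likelihood F-test and Benjamini-Hochberg adjustment over 16101 genes. A log2 fold change is given with an approximate SE (its size over the square root of F), and CPM are TMM-scaled. Totals of 15950717 to 21725076 counts leave little counting error for the members, so the spread between hearts sets the precision. Elovl6, which is no member, fell to 12 counts, where counting error is larger. Alternatives were RLE scaling, no filter, DESeq2 1.42.0, the groups compared alone, a replicate block, each library left out in turn and, added after the data were seen, limma 3.58.1 voom with library weights and the contrast of genotype over both treatments. The scripts were tested on simulated counts.

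The 38 members, their roles and the pathway lists were chosen with earlier results of these data known. Every member may be named. Values in every heart are given for members that met the adjusted threshold or the study's limits in any contrast and for the 4 with the smallest p in each contrast. Chosen after their values were seen, Ucp3, Cpt1b and Acadm are also given in every heart. Chosen in the same way, Acot1, Acot2, Ehhadh, Hadha, Hadhb, Fabp3, Acsl1, Slc27a1 and Etfb are given in some of the hearts only. From each pathway list at most 2 genes with the smallest p were named for doxorubicin in A17fl/fl and for genotype after DOX. Replicates of a group differed by more than counting noise (chi-square per degree of freedom 8.19 to 119), so each library counts as 1 sample. The labels do not say outright that each library came from its own mouse, and p-values measure the spread between these libraries. Positions, overlaps and transcript words are from GENCODE M21 (GRCm38) and promoters from RefSeq (GRCm38.p6), matched by gene ID or symbol. No coordinates of GRCm39 were used.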

Additional observations from a re-analysis of the deposited data

Results flagged for a closer look

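Doxorubicin had different fitted effects in the 2 genotypes for 2 members, by the interaction term at an unadjusted p under 0.05. For Ppargc1b the effect in A17α-MHCKO minus that in A17fl/fl was -1.04 ± 0.37 log2 units (SE, edgeR adjusted p = 0.828), between -1.42 and -0.79 with any 1 library left out. All 3 A17fl/fl + DOX hearts, at 19.3 to 22.1 CPM, were above the other 9, at 6.35 to 16.7, which was not counted over all genes. For Bdh1 the interaction was 1.98 ± 0.79 (edgeR adjusted p = 0.828), between 1.61 and 2.60 with any 1 library left out. Its A17fl/fl + NS hearts were at 158, 55.5 and 169 CPM and its A17α-MHCKO + NS hearts at 18.7, 51.2 and 19.5. Across all genes tested, 3.50% had an interaction above 0 and 2.49% below 0 at that threshold, so 1 member of 38 each way is near the background. Neither value passed the adjusted test.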

How the results depend on the processing

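The member medians moved by less than 0.36 log2 under the alternatives run, the pooled within-group SD of the library medians. That SD includes the A17fl/fl + NS hearts at -0.90, 0.01 and 0.36. It therefore cannot show that leaving out 1 of these hearts matters little. The medians changed sign for doxorubicin in A17fl/fl (-0.14 to 0.44 over the libraries left out) and genotype after NS (-0.30 to 0.27). They also did so for the interaction (-0.20 to 0.41) and genotype over both treatments (-0.11 to 0.17). Counts of members with an unadjusted p under 0.05 ranged, with 1 library left out, from 3 to 8 for doxorubicin in A17fl/fl, 0 to 2 in A17α-MHCKO, 1 to 11 for genotype after NS, 0 to 1 after DOX, 3 to 17 for doxorubicin over both genotypes, 1 to 7 for the interaction and 2 to 6 for genotype over both treatments. The 2 for doxorubicin in A17α-MHCKO came without A17α-MHCKO + NS replicate 1 (5.14% of all genes called). The 0 for genotype after DOX came without A17α-MHCKO + DOX replicate 3 (3.29%). The counts of 11 and 7 came without A17fl/fl + NS replicate 1 (10.2% and 7.13%), and 8 without replicate 2 (20.8%). The counts of 17 and 6 came without replicate 3 of that group (14.2% and 9.87%). With only the 2 groups compared in the fit they were 4 for doxorubicin in A17α-MHCKO (10.8% of all genes), 1 for genotype after NS (4.99%) and 4 after DOX (7.19%), and with no filter 1 for genotype after NS (7.02%). With voom and library weights, added after the data were seen, they were 9, 6 and 2 for the same 3 contrasts (13.1%, 6.93% and 6.78%), 4 for the interaction (6.57%) and 4 for genotype over both treatments (7.38%). The weight of A17fl/fl + NS replicate 1 was 0.135 against 0.589 to 2.01 for the others.

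A replicate block gave 2 members for genotype after DOX (2.76% of all genes, 1 member without it) and 3 for doxorubicin over both genotypes (9.86%, 6 members without it), and kept the other counts within 1.5 times. Deviations of same-numbered libraries from their group means correlated at -0.10 to 0.22 (median 0.00, 18 pairs). Those of other pairs correlated at -0.26 to 0.32 (median -0.01, 36 pairs). This check showed no sign of a pairing by number, but it cannot exclude a pairing. For the 4 members with the smallest p in each contrast, 341 alternative values kept their direction and their side of an unadjusted p of 0.05, 26 crossed below it and 29 above it, and 0 changed sign. Of all 38 members, 20 changed sign for doxorubicin in A17fl/fl and 10 for genotype after NS without A17fl/fl + NS replicate 1. With 3 hearts in a group, the spread in A17fl/fl + NS limits what can be called.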

Other observations

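Gapdh, a glycolytic gene usually among the most abundant mRNAs of muscle, was counted at 12.7 to 26.3 CPM in the 12 hearts, and Hadhb at 63.9 to 238 CPM beside 443 to 1382 for Hadha, its partner in one enzyme complex. How the counting treated reads that fit several copies of a gene is not given in the sources used here. Of the fatty acid synthesis genes, Elovl6 was at 0.755, 1.36 and 1.09 CPM in A17α-MHCKO + DOX against 2.26, 5.66 and 5.53 in A17fl/fl + DOX (-2.06 ± 0.71, edgeR adjusted p = 1.0). Elovl6 was near the floor, with 12, 21 and 18 counts in the A17α-MHCKO + DOX libraries. Its FPKM was 0.0621 to 0.616 over the 12 hearts, below the study's limit of 1. Scd1 was at 42.8, 61.5 and 43.3 against 52.6, 190 and 119 CPM, so its groups overlapped (-1.29 ± 0.63). Both were also low in A17fl/fl + NS replicate 3 (0.752 and 38.4 CPM) and A17α-MHCKO + NS replicate 1 (1.11 and 33.2 CPM), the 2 hearts with the highest Pdk4 and Ucp3.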
